A study of Rattus norvegicus with 78 samples.

Results

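The genes of the proteasome, the protease complex that breaks down ubiquitin-tagged proteins, were followed in the hippocampus of young and old rats before and after training in a water maze. The members were taken by gene symbol: every gene with a probe set that carries a single symbol starting with Psma, Psmb, Psmc, Psmd or Psme, leaving out the immunoproteasome genes Psmb8 and Psmb9. This gave 36 genes of 10411 with a single symbol on the array, measured by 39 probe sets, and the brightest probe set stood for each gene. Of the 36, 34 encode subunits, assembly chaperones or activators and are described here. The other 2, Psmc3ip and Psme3ip1, share only the prefix: their products bind a proteasome protein but are no part of the complex. A further 6 probe sets with such symbols carried several symbols each and were not used. Psmb6, Psme3, Psmc6, Psmd12 and Psmd14 were not analysed here.

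RNA came from the left dorsal hippocampus of 78 male rats of the F344 strain, each on an RAE230A array of its own, so that each array is a separate animal. Young rats were 4 to 6 months old and old rats 24 to 26 months old. Untrained rats stayed in the home cage: 10 young rats are called NT-Y and 10 old rats NT-A. Trained rats learned the Morris water maze, a task in which a swimming rat finds a hidden platform, and old trained rats had been divided by their performance into unimpaired (AU) and impaired (AI), a split that the untrained old rats did not have. Some trained rats were killed when training ended on day 5: 10 young (5T-Y), 10 unimpaired old (5T-AU) and 10 impaired old rats (5T-AI). The others were killed 21 days after training, called day 21 here: 9 young (21PT-Y), 10 unimpaired old (21PT-AU) and 9 impaired old rats (21PT-AI). No other treatment or genetic change is given for any group.

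The 26S proteasome consists of a barrel, the 20S core, capped by the 19S regulatory particle. The alpha subunits form the outer rings of the core and gate its entry, and the beta subunits form the inner rings, where Psmb5 holds the chymotrypsin-like and Psmb7 the trypsin-like site. In the 19S particle an ATPase ring, made by the Psmc genes, unfolds the substrate, and the Psmd genes encode the scaffold, the ubiquitin receptors and the lid. In neurons the proteasome turns over synaptic proteins, and its activity has been studied both in memory formation and in ageing brain. Other caps can replace the 19S particle: PA28, made of Psme1 and Psme2, and PA200, made by Psme4. Under interferon, Psmb8, Psmb9 and Psmb10 take the places of Psmb5, Psmb6 and Psmb7, and Psme1 and Psme2 also rise in many cell types. The set therefore held 3 interferon-inducible genes (Psmb10, Psme1 and Psme2) beside the constitutive ones, and it was not purely constitutive. By role there were 7 alpha ring genes, 7 beta ring genes, 5 ATPase genes, 9 other regulatory particle genes, 3 assembly chaperones and 3 activators.

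The promoters of 4 genes are shown because these genes carry the age results below or are the interferon-inducible members set beside them. Each runs from 250 bases before to 50 bases after the annotated start of the gene, in RefSeq's GRCr8 assembly, and reads 5′ to 3′ on the gene's strand. Capitals mark matches to the interferon-stimulated response element, searched as GAAA, any 2 bases and GAAA again, or to the antioxidant response element, searched as TGACNNNGC.
Psme1 (PA28 alpha), chr15:33038721-33039020, plus strand: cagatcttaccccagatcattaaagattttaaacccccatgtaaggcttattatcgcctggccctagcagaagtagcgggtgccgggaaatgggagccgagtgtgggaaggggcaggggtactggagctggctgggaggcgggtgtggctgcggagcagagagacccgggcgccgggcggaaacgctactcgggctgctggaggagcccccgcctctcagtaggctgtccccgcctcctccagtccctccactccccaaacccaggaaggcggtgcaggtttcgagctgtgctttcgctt
Psme2 (PA28 beta), chr15:33052702-33053001, minus strand: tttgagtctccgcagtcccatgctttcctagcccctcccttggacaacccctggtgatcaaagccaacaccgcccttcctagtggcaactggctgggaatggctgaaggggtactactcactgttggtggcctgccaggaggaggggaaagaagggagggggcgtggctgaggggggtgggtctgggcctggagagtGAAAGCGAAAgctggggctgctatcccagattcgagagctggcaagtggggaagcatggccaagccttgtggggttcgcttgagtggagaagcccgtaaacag
Psmb10 (inducible beta subunit), chr19:50743243-50743542, minus strand: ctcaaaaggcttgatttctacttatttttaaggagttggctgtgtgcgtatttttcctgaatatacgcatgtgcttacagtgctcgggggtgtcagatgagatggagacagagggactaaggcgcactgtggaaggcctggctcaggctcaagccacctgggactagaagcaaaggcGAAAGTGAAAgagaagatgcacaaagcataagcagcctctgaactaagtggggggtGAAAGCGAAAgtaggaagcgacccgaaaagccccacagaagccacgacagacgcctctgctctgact
Psmb5 (chymotrypsin-like subunit), chr15:32047330-32047629, minus strand: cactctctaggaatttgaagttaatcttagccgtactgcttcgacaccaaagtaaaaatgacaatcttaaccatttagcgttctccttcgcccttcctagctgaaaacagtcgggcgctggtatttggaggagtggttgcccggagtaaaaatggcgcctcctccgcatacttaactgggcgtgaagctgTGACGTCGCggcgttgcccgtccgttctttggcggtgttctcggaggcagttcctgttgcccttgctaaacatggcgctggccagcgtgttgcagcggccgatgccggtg
Psmb10 had 2 matches to the interferon element and Psme2 had 1, while no whole match lay in the Psme1 window. That window ended in tttcgctt, which begins the element as read on the other strand. A match cut off by the window's end could not be seen. Psmb5 had 1 match to TGACNNNGC.

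A RefSeq promoter was found for 32 of the 34 genes; Psma7 and Psmd6 are named only. Both strands were searched, and a base may belong to more than 1 match. The interferon element was in 5 of the 32 windows (15.6%), against 3.77% of all 27457 rat promoters of the same length. The antioxidant element, the site through which Nfe2l2 acts on proteasome genes in mouse cells, was in 7 (21.9%), against 12.2% of all. The gamma interferon site TTCNNNGAA was in 2 (6.2% against 8.68%), and CCAAT was in 16 (50% against 37.7%). These are matches of letters only.

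All 34 genes were bright enough to be tested. Each exceeded the filter level, which is the 40th percentile of all signals on that array, in 78 of 78 arrays, so no member passed through 1 group alone. The values are MAS5 signal, an intensity on a linear scale, and differences are given as log2 of signal plus 1, with the standard error (SE) of a limma fit over all 78 arrays. Calls used an adjusted p under 0.05 by the Benjamini-Hochberg method over all 10371 probe sets tested. "Higher in 9 of 10 arrays" counts the arrays above the mean of the other group. Neuronal markers were at high signal in every array, with 9 of the 10 listed genes on the array and a summed signal from 22018 to 37009. The array of 5T-AI replicate 4 differed from all others: its microglial marker sum of 26881 was the highest and its neuronal sum of 22018 the lowest of all 78. Scan day, chip lot and fluidics module were known for each array. No group had more than 1 array on any of the 11 scan days, each of the 3 lots had 3 or 4 arrays from each group, and the 4 modules nearly followed the groups.

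The proteasome transcripts varied little between rats of a group. The SD within groups had a median of 0.127 log2 over the 34 genes, against 0.176 over the 7488 genes tested, and 30 of the 34 lay below that all-gene median. It ran from 0.077 for Psmd2, a large scaffold of the 19S base, to 0.276 for Psmd1, its partner scaffold. The Psmd2 signal was 1612.1 at the lowest, 1784.4 at the median and 1939.8 at the highest in NT-Y, and 1541.8, 1693.6 and 1800.1 in NT-A. Psmd1, in contrast, spanned 364.2 to 708.2 in NT-Y alone, around a median of 550.7. The others above the all-gene median were Psma1 (0.25), an alpha ring subunit, and both PA28 genes, Psme1 (0.231) and Psme2 (0.210). The mean log2 signal of the 34 genes ran from 8.14 to 11.73, with a median filter level of 7.34 over the arrays. The all-gene values were not matched for brightness, whose part in the small spread was not tested.

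**Figure D1:**
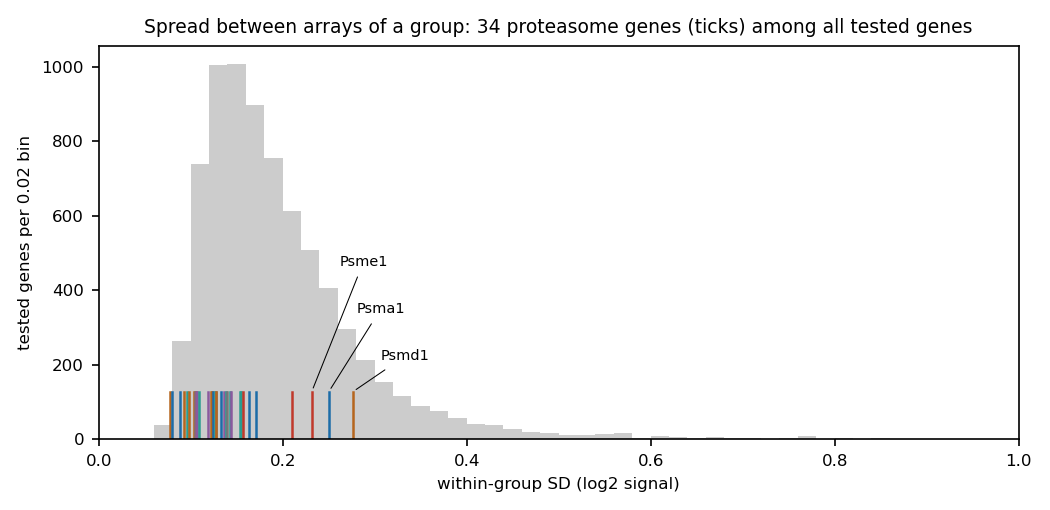
Histogram of the within-group SD (log2 signal, x axis) of the 7488 tested genes, as genes per bin (y axis), with a coloured tick for each of the 34 proteasome genes by role. Most ticks sit left of the all-gene median of 0.176, and Psme1, Psma1 and Psmd1 sit right of it.

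The 8 group means also lay close together. The difference between the highest and the lowest group mean had a median of 0.105 log2 over the 34 genes, against 0.174 over all tested genes. For 32 of the 34 it was under 0.2, as it was for 61.0% of all tested genes, again not matched for brightness. The 2 exceptions were Psma1, at 0.41, and Psme1, at 0.40. By its brightest probe set Psmd11, a lid subunit, had the smallest, at 0.049. The group means of its second probe set ran from 10.369 (21PT-AU) to 10.523 (21PT-Y). A limma F test over the 8 groups called 1 of the 34 genes, Psme1 (F = 3.92, adjusted p = 0.0295), and 4.11% of all probe sets. With a term for fluidics module it called 0 of the 34. In the other roles the smallest p belonged to Psma1 (adjusted p = 0.226), Psmb5 (adjusted p = 0.268), the ATPase Psmc4 (adjusted p = 0.66), the lid subunit Psmd13 (adjusted p = 0.268) and the chaperone Psmd9 (adjusted p = 0.575), all from the limma F test.

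**Figure D2:**
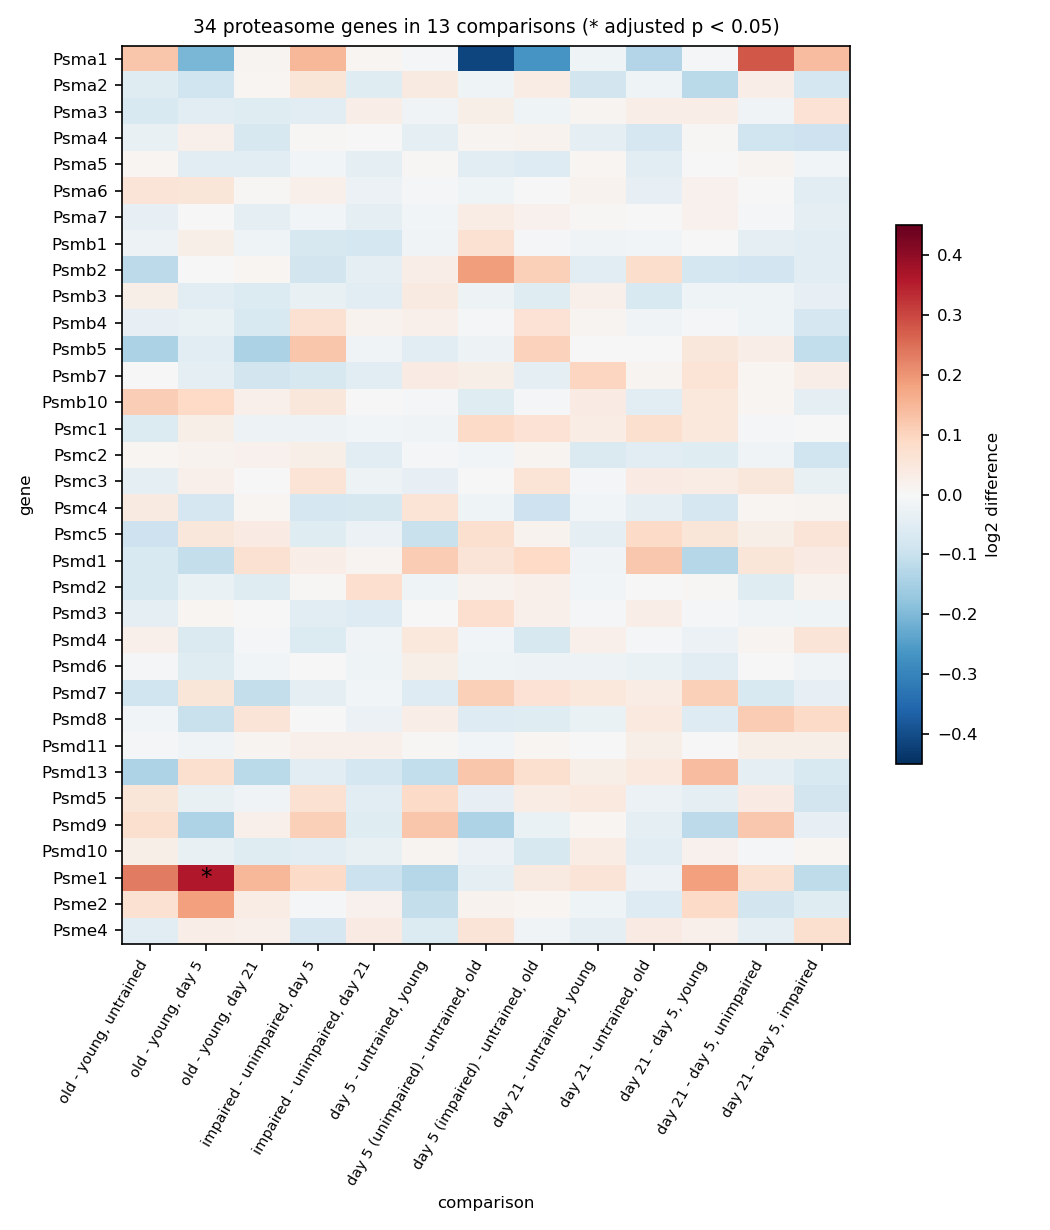
Log2 differences (colour scale) of the 34 genes (rows, ordered by role) in 13 comparisons (columns), with a star at an adjusted p under 0.05. The only star is Psme1 in old against young rats on day 5, and the darkest blue cell is Psma1 in unimpaired old rats on day 5 against untrained old rats (-0.41).

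Whether age changed the proteasome genes was asked separately in untrained rats, on day 5 and on day 21. These comparisons share no array. In untrained rats every young array was on fluidics module 1 and no old array was, so age and module cannot be told apart there. On days 5 and 21 most young arrays were on a module that held few old arrays of that time. Psme1 was higher in old rats in all 3 comparisons and passed the test on day 5. None of the other 33 genes passed in any of them. In untrained rats 0 of the 34 passed, with 0.781% of all probe sets called, and 3 of the 34 (8.82%) against 8.73% of all had an unadjusted limma p under 0.05. On day 5, 1 of the 34 was called as higher in old rats, with 2.02% of all probe sets called as higher and 2.5% in either direction. At an unadjusted limma p under 0.05 there were 5 of the 34 (14.7%) against 12.2%. On day 21, 0 of the 34 passed, with 2.84% of all called, and 3 of the 34 (8.82%) against 16.7% had an unadjusted limma p under 0.05. The shares called among the 34 thus lay near or below those of all probe sets.

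The median difference over the 34 genes was -0.018 log2 in untrained rats, against -0.0012 over all tested probe sets, and -0.061 with the module term. It was -0.024 against -0.0084 on day 5 and -0.0054 against -0.0092 on day 21. The intervals show which sizes remained possible. The 95% interval of a gene, not adjusted for the number of genes, lay within 0.25 log2 of 0 (a 1.19-fold change) for 28 of the 34 in untrained rats, 29 on day 5 and 31 on day 21. It lay within 0.5 log2 for all 34 in untrained rats and on day 21, and for 33 on day 5, Psme1 being the exception. The ranges of old and young arrays overlapped for all 34 genes in all 3 comparisons.

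**Figure D3:**
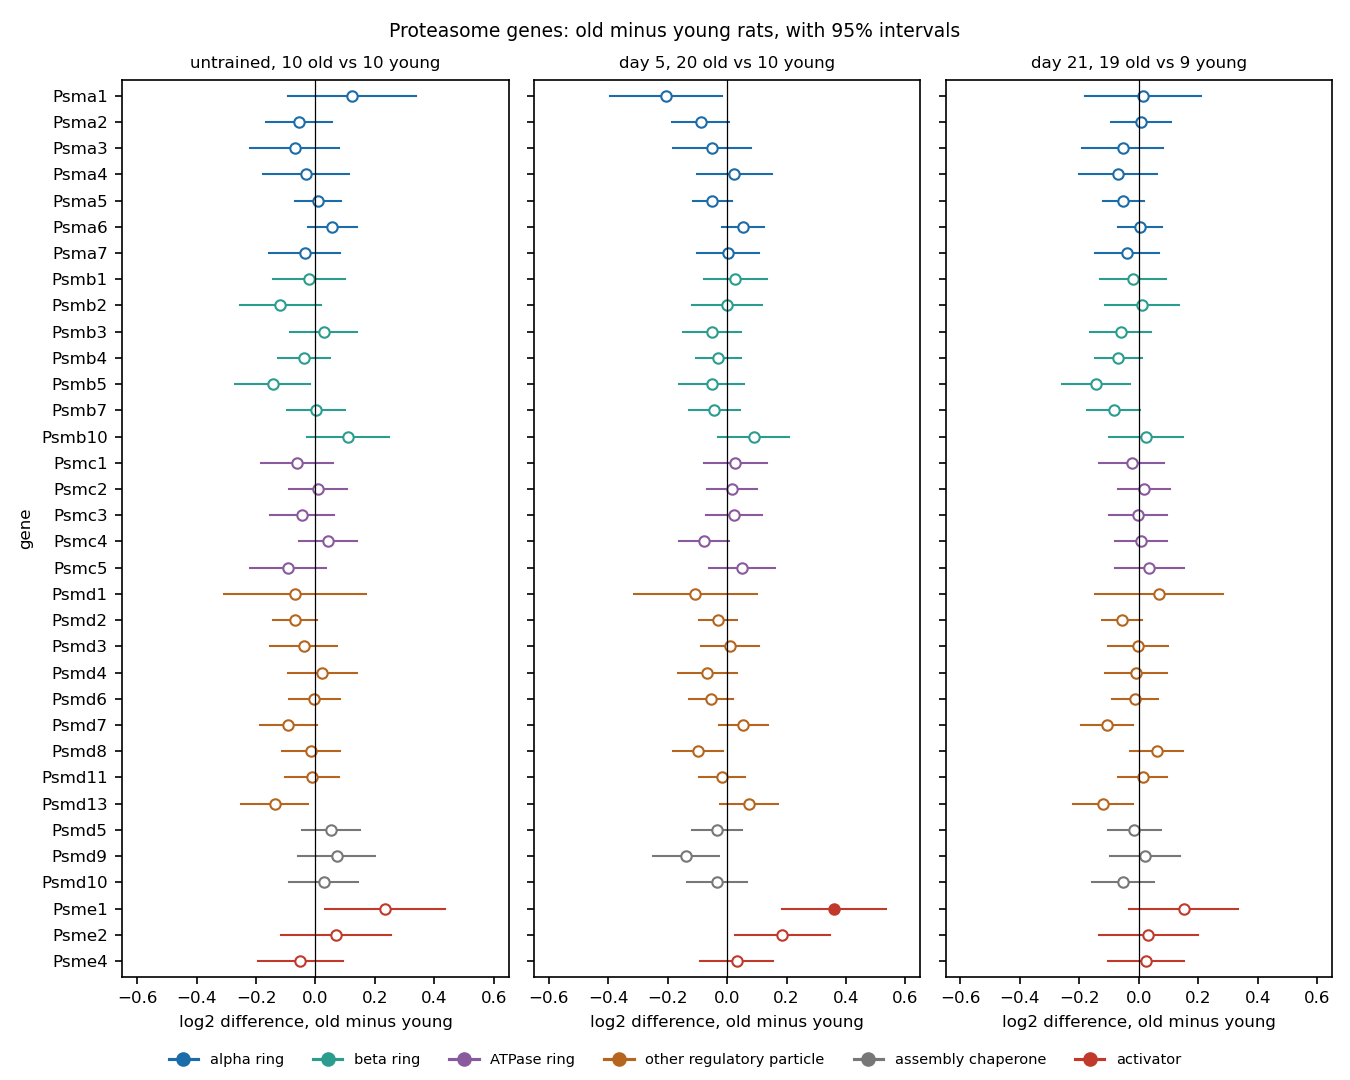
Log2 difference of old minus young rats (x axis) for each of the 34 genes (y axis, coloured by role), with 95% intervals, in untrained rats, on day 5 and on day 21. A filled point marks an adjusted p under 0.05, which only Psme1 on day 5 reached (0.36, interval 0.19 to 0.53).

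In the alpha ring none of the 7 genes passed, with differences from -0.070 to 0.12 in untrained rats, -0.21 to 0.053 on day 5 and -0.071 to 0.013 on day 21. Both ends farthest from 0 were those of Psma1, at 0.12 ± 0.11 in untrained rats (-0.19, -0.02 and 0.47 within lots) and -0.21 ± 0.09 on day 5 (adjusted p = 0.327 by limma). The 5 ATPase genes kept within -0.092 and 0.042 in untrained rats, -0.077 and 0.050 on day 5 and -0.024 and 0.035 on day 21. Their 95% intervals reached no further than -0.22 and 0.16, the narrowest span of the 6 roles over these comparisons.

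Among the 9 other regulatory particle genes none passed. Psmd13 had values of opposite sign: -0.14 ± 0.06 in untrained rats (adjusted p = 0.377), 0.073 ± 0.049 on day 5 (adjusted p = 0.62) and -0.12 ± 0.05 on day 21 (adjusted p = 0.199). Its signal in NT-Y was 490.9 at the lowest, 576.35 at the median and 625.3 at the highest, and 454.4, 517.3 and 590.2 in NT-A. On day 21 it was 503.9, 583.8 and 673.4 in 21PT-Y, 487.2, 541.15 and 630.2 in 21PT-AU, and 450.8, 524.3 and 594.9 in 21PT-AI. The old groups had the lower medians at both times, but the ranges overlapped widely. The difference between its day 5 and untrained age differences, tested after the data were seen, was 0.21 ± 0.07 and did not pass (adjusted p = 1.00 by limma). Psmd7, also of the lid, was lower by value on day 21 in all 19 old arrays than the young mean, at -0.11 ± 0.04 (adjusted p = 0.179), whereas it had -0.091 ± 0.048 in untrained rats and 0.054 ± 0.041 on day 5. Of the chaperones that assemble the ATPase ring, Psmd9 had a day 5 difference of -0.14 ± 0.06, below the young mean in 19 of 20 old arrays, and did not pass (adjusted p = 0.237 by limma). At the other times its values had the opposite sign, 0.071 ± 0.065 in untrained rats and 0.022 ± 0.059 on day 21.

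The beta ring held Psmb5, whose age difference was the lowest of the 34 in untrained rats and on day 21. Its signal in untrained rats was 2761.3 at the lowest, 3315.7 at the median and 3636.2 at the highest in NT-Y, and 2619.7, 2999.9 and 3320.8 in NT-A. On day 5 it was 2679.2, 3221.9 and 3651.7 in 5T-Y, 2475.7, 2880.4 and 3462.6 in 5T-AU, and 2738.1, 3170.4 and 3837.2 in 5T-AI. On day 21 it was 2888.1, 3275.9 and 3603.6 in 21PT-Y, 2339.5, 2923.3 and 3652.3 in 21PT-AU, and 2328.3, 2996.0 and 3264.7 in 21PT-AI. Every old group had a lower median than the young group of its time, by little in 5T-AI, and all ranges overlapped. By the mean log2 signal, which the fit uses, 5T-AI was slightly above 5T-Y (11.63 against 11.62). The differences were -0.14 ± 0.06 in untrained rats (adjusted p = 0.444), -0.051 ± 0.055 on day 5 (adjusted p = 0.807) and -0.14 ± 0.06 on day 21 (adjusted p = 0.172), none past the test.

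Averaged with equal weight over the 3 times, a contrast added after the data were seen because Psmb5 and Psme1 had 1 sign throughout, Psmb5 fell by 0.11 ± 0.03 log2 in old rats (a fold of 0.925, adjusted p = 0.0213 by limma). It was below the young mean in 39 of 49 old arrays, and its difference was negative in each of the 3 lots at all 3 times, from -0.03 to -0.23. In this contrast 2 of 9 neuronal markers also fell. Psme1 rose and the other 32 genes did not pass. That is 2 of 34, while 8.78% of all probe sets were called, 5.31% as higher and 3.47% as lower. The share among the 34 was below that of all probe sets, and the contrast was chosen on these values.

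Psme1, the alpha subunit of the PA28 cap, was the one gene to pass a planned comparison. In untrained rats its signal was 552.7 at the lowest, 638.6 at the median and 771.4 at the highest in NT-Y, and 573.5, 776.85 and 871 in NT-A. On day 5 it was 502, 607.35 and 670.1 in 5T-Y, 612.8, 731.2 and 938.7 in 5T-AU, and 485.7, 765.2 and 1572.4 in 5T-AI. On day 21 it was 586.8, 617.7 and 832.9 in 21PT-Y, 564.5, 799.05 and 889.5 in 21PT-AU, and 553.9, 712 and 856 in 21PT-AI. All 5 old medians lay above all 3 young medians, and in each comparison the ranges overlapped. The order of the old medians is not separated by the spread within groups.

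On day 5 Psme1 was higher by 0.36 ± 0.09 log2 in old than in young rats (a fold of 1.28, 95% interval 1.14 to 1.45, adjusted p = 0.00733 by limma). It was higher in 19 of 20 old arrays. Its mean log2 signal was 9.52 in 5T-AU and 9.60 in 5T-AI, against 9.56 in NT-A, and 9.20 in 5T-Y, against 9.33 in NT-Y. The age difference was 0.23 ± 0.10 in untrained rats (9 of 10 arrays, adjusted p = 0.425) and 0.15 ± 0.09 on day 21 (15 of 19 arrays, adjusted p = 0.416), neither past the limma test. Averaged over the 3 times, in the contrast added after the data were seen, it rose by 0.25 ± 0.05 (41 of 49 old arrays, adjusted p = 0.000638 by limma). The 3 age differences of Psme1 were not shown to differ: the day 5 difference minus the untrained one was 0.13 ± 0.13, and the day 21 difference minus the day 5 one was -0.21 ± 0.13 (unadjusted p = 0.349 and 0.103 in the limma fit). In the 6 differences between differences tested after the data were seen, 0 of the 34 genes and 0 of the 10371 probe sets passed. At an unadjusted limma p under 0.05 there were 4 of the 34 for the age difference of day 5 minus untrained, against 3.72% of all. There were 0 for day 21 minus untrained (3.88% of all) and 3 for day 21 minus day 5 (6.38%). For impairment, day 21 minus day 5, there were 0 (3.35%). For training there were 4 in unimpaired minus young rats (3.15%) and 2 in impaired minus young rats (4.64%). The day 5 call was lost with a term for fluidics module (0.32, adjusted p = 0.445) and when only the arrays of the contrast were fitted (0.36, adjusted p = 0.0821).

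**Figure D4:**
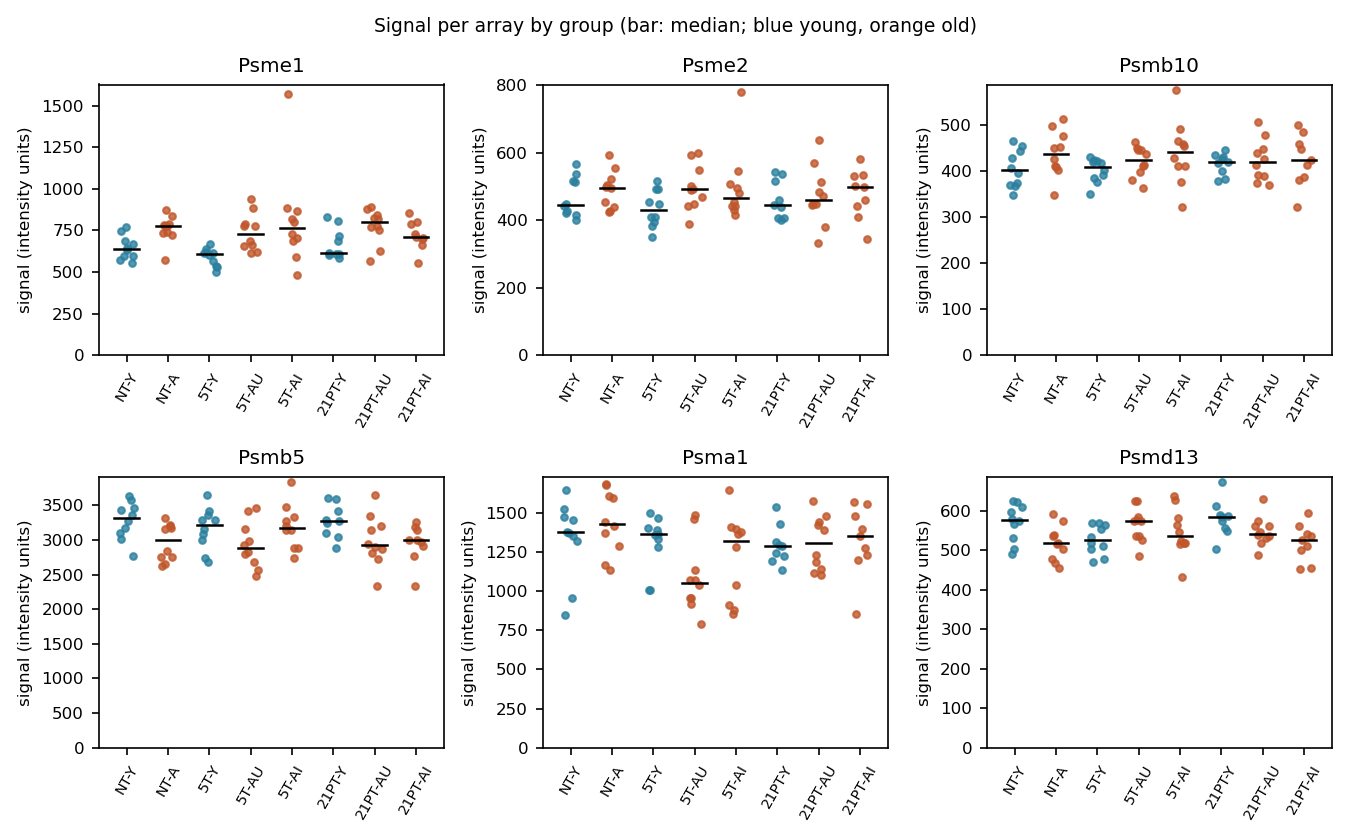
Signal (intensity units, linear axis from 0) of Psme1, Psme2, Psmb10, Psmb5, Psma1 and Psmd13 in each array (points, blue young and orange old) by group, with the group median as a bar. The Psme1 medians of old groups, 712 to 799.05, lie above those of young groups, 607.35 to 638.6, and 1 array of 5T-AI reaches 1572.4.

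The array 5T-AI replicate 4 had the highest Psme1 signal of its group, 1572.4 against 485.7 to 887.4 in the other 9. It was also highest for Psme2 (780.2 against 414.8 to 546) and Psmb10 (574.6 against 321.7 to 489.8), and for the inducible Psmb8 (506.5 against 128.5 to 168.7) and Psmb9 (425.8 against 72.4 to 135.4). It was lowest in its group for the ATPase genes Psmc1 (1283.1 against 1603.2 to 1967.8) and Psmc5 (1343.7 against 1700.5 to 2167.2). Without it, Psme1 was higher by 0.30 in old than in young rats on day 5 with an adjusted p of 0.00797 by limma, and the call held. Within lots the day 5 difference was 0.43, 0.59 and 0.14, and the 0.59 of lot 2 was 0.43 without this array.

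Microglial markers were also higher in old rats. Of 9 listed markers 8 were tested, all but Cd68, and none was at 0; they rose in old rats for 3 of 8 in untrained rats, 5 on day 5 and 4 on day 21. Their summed signal was 5197.5 to 7261.5 in NT-Y and 7371.2 to 9395.7 in NT-A, then 4947.5 to 6976.5 in 5T-Y, 7026.1 to 9793.1 in 5T-AU and 6840 to 26881 in 5T-AI. On day 21 it was 4866.4 to 6384.1 in 21PT-Y, 7631.8 to 9156.5 in 21PT-AU and 7594.1 to 9549.6 in 21PT-AI. In this bulk tissue, more cells of a type and more RNA per cell cannot be told apart.

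Within old groups, Psme1 and the mean of the 8 microglial markers, both with group means removed, had r = 0.61 over 49 arrays (permutation p = 0.0165, adjusted p = 0.149 over 9 relations, chosen after the data were seen). Spearman's rho was 0.28 (permutation p = 0.0422, adjusted p = 0.345). The r was 0.23 without the 2 arrays farthest from the marker median, and 0.24 without 5T-AI replicate 4 (permutation p = 0.17), so the relation rested on that array. Within lots the r was 0.19, 0.92 and 0.26, and lot 2, with the 0.92, holds that array. In young rats it was -0.15 (permutation p = 0.487). For the mean of the 31 members other than Psme1, Psme2 and Psmb10, r was -0.40 in old rats, -0.32 without that array, and 0.02 in young rats, given as a description. Of other lists, astrocyte markers rose for 1, 2 and 1 of 8 at the 3 times, endothelial markers for 0, 0 and 3 of 4 and blood markers for 1, 1 and 2 of 2. Neuronal markers were called for 0 of 9 at each time. In the average over the 3 times, in which Psmb5 fell and Psme1 rose, 6 of the 8 microglial markers rose, and 2 of the 9 neuronal markers fell: Camk2a (-0.14 ± 0.04, adjusted p = 0.0302) and Rbfox3 (-0.13 ± 0.04, adjusted p = 0.0477, both by limma). The median of the 9 was -0.076. The part of other cell types in the Psme1 and Psmb5 results was not tested beyond these values.

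Psme2, the partner of Psme1 in PA28, had values of the same sign that did not pass: 0.069 ± 0.093 in untrained rats, 0.19 ± 0.08 on day 5 (17 of 20 old arrays, adjusted p = 0.278 by limma) and 0.033 ± 0.084 on day 21. Its day 5 signal was 349.6 at the lowest, 430.15 at the median and 517.3 at the highest in 5T-Y, 389.3, 492.1 and 600.9 in 5T-AU, and 414.8, 467.75 and 780.2 in 5T-AI. Psmb10 had 0.11 ± 0.07, 0.089 ± 0.060 and 0.024 ± 0.063 at the 3 times, and Psme4, the PA200 cap, had -0.050 ± 0.071, 0.032 ± 0.062 and 0.025 ± 0.064, none past the test. A dimmer probe set of Psme4 had -0.064 ± 0.120, 0.23 ± 0.10 and 0.11 ± 0.11 at the 3 times (adjusted p = 0.323 by limma on day 5). Another had -0.035 ± 0.071, 0.024 ± 0.061 and -0.092 ± 0.064, so the probe sets of that gene did not give 1 value. Likewise the second probe set of Psmd11 had -0.11 ± 0.06, -0.0041 ± 0.0478 and -0.14 ± 0.05 at the 3 times, none past the test.

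The 2 inducible genes outside the set were dimmer: Psmb8 exceeded the filter level in 30 of the 78 arrays and Psmb9 in 1. Psmb8, the counterpart of Psmb5, had 0.14 ± 0.12, 0.20 ± 0.11 and 0.25 ± 0.11 in old rats at the 3 times (adjusted p = 0.843, 0.435 and 0.219), and passed in the added average (0.20 ± 0.06, 44 of 49 old arrays, adjusted p = 0.0405 by limma). Without 5T-AI replicate 4 the day 5 value of Psmb8 was 0.11 in place of 0.20, and within lot 2 it was 0.02 in place of 0.34, while the average was 0.17 (adjusted p = 0.0118 by limma). Psmb9, the counterpart of Psmb6, failed the filter on dim signal, and in a fit without the filter it was 0.41 ± 0.16, 0.38 ± 0.13 and 0.54 ± 0.14 (adjusted p = 0.375, 0.175 and 0.0239 by limma). The added average of Psmb9 in that fit was 0.44 ± 0.08 (47 of 49 old arrays, adjusted p = 7.46e-05 by limma). It rests on signal below the filter level in nearly all arrays, with 5T-AI replicate 4 included. At each time Psmb8 was thus higher and Psmb5 lower in old rats by value, and the difference between these genes was not tested.

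Whether cognitive impairment went with a change was asked within old rats. None of the 34 genes passed, on day 5 or on day 21, with 0.0% of all probe sets called by limma in both; at an unadjusted p under 0.05 there were 0 and 1 (2.94%) of the 34, against 4.58% and 4.60% of all. The medians of the 34 were -0.0046 on day 5 and -0.025 on day 21, against -0.0054 for all probe sets at both times. The 95% interval lay within 0.25 log2 of 0 for 30 and 32 genes and within 0.5 for all 34. On day 5 the smallest p belonged to Psmb5 (0.12 ± 0.06, adjusted p = 0.985), Psmd9 (0.11 ± 0.07) and Psmb4 (0.070 ± 0.044). On day 21 it belonged to Psmd2 (0.077 ± 0.038, adjusted p = 0.997), Psmc4 (-0.071 ± 0.050) and Psmd13 (-0.081 ± 0.058). Psme1 had 0.084 ± 0.101 on day 5 and -0.097 ± 0.104 on day 21. Its day 5 value turned to -0.028 without 5T-AI replicate 4, and within lots it was -0.15, 0.54 and -0.08, the 0.54 in the lot that holds that array.

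Whether training changed the genes was asked by setting day 5 against untrained rats of the same age. None of the 34 genes passed: 0.0675% of all probe sets were called in young rats, 0.0289% in unimpaired old rats and 0.0868% in impaired old rats. At an unadjusted limma p under 0.05 there were 1 (2.94%), 5 (14.7%) and 1 (2.94%) of the 34, against 3.16%, 5.57% and 10.4% of all. The 2 comparisons in old rats share the NT-A arrays. In young rats the smallest p belonged to Psmd13 (-0.11 ± 0.06), Psmd9 (0.13 ± 0.07) and Psmd5, another chaperone (0.085 ± 0.049), each with an adjusted p of 1.00 by limma.

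Psma1 gave the value farthest from 0 of any member in any comparison. Its signal was 1135.5 at the lowest, 1429.2 at the median and 1686.8 at the highest in NT-A, 793, 1055.2 and 1488.3 in 5T-AU, and 851.4, 1322.8 and 1645.9 in 5T-AI. In young rats it was 849.8, 1376.1 and 1645.7 in NT-Y and 1005.2, 1362.3 and 1496.6 in 5T-Y. Most 5T-AU arrays lay below most NT-A arrays, and the ranges overlapped. The difference was -0.41 ± 0.11 in unimpaired old rats (8 of 10 arrays lower, adjusted p = 0.19 by limma), -0.26 ± 0.11 in impaired old rats (adjusted p = 0.366) and -0.0096 ± 0.1086 in young rats.

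It passed with scan day as a block (adjusted p = 0.0499), and within lots it was -0.29, -0.06 and -0.77, farthest from 0 in lot 3. By day 21 the Psma1 signal of unimpaired rats was 1102.1, 1310.8 and 1576.3, a difference from day 5 of 0.28 ± 0.11 (10 of 10 arrays, adjusted p = 0.895), which did not pass. The next smallest p values in unimpaired rats belonged to Psmb2, a non-catalytic beta subunit (0.19 ± 0.07, adjusted p = 0.683), and Psmd7 (0.11 ± 0.05, adjusted p = 0.833). In impaired rats they belonged to Psmc4 (-0.093 ± 0.049, below the NT-A mean in 10 of 10 arrays, adjusted p = 0.497) and Psmb5 (0.10 ± 0.06, adjusted p = 0.587).

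None of the 34 genes passed on day 21 against untrained rats, young or old, with 0.0% of all probe sets called in both; at an unadjusted limma p under 0.05 there were 0 and 0 of the 34, against 2.44% and 5.54% of all. The members' differences ran from -0.082 to 0.096 in young rats and from -0.13 to 0.12 in old rats. In young rats Psmb7 (0.096 ± 0.051), Psma2 (-0.082 ± 0.058) and Psmc2 (-0.063 ± 0.050) had the smallest p. In old rats these were Psma5 (-0.052 ± 0.034), Psmc5 (0.084 ± 0.056) and Psma1 (-0.13 ± 0.09).

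From day 5 to day 21, 0 of the 34 genes passed in young rats (0.0964% of all probe sets called), in unimpaired old rats (0.0%) and in impaired old rats (0.00964%). The counts at an unadjusted limma p under 0.05 were 3, 2 and 0 of the 34 (8.82%, 5.88% and 0.0%), against 7.37%, 4.72% and 4.89% of all. In young rats the smallest p belonged to Psmd13 (0.14 ± 0.06, adjusted p = 0.6), Psmd7 (0.11 ± 0.05) and Psma2 (-0.12 ± 0.06). After Psma1, unimpaired rats had Psmd8, a lid subunit (0.11 ± 0.05), and Psmd9 (0.12 ± 0.07). Impaired rats had Psmc2 (-0.089 ± 0.050), Psmb5 (-0.11 ± 0.06) and Psmd8 (0.086 ± 0.050). Psmc3ip and Psme3ip1 also passed in none of the comparisons.

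Most pairs of members had only a weak correlation between arrays. After group means were removed, the 561 pairs of members had a median r of 0.055 over the 78 arrays, a description with no test, since arrays of a pair share scan day and scaling. It ran from -0.45 (Psmc5 with Psme1) to 0.66 (Psma5 with Psmb1), and 84 pairs were over 0.3, or 44 once scan day means were removed too. In 5T-AI replicate 4 Psme1 was the highest of its group and Psmc5 the lowest, and the pairs were not computed without that array. Pairs within the 20S core had a median of 0.14, pairs of the core with the others 0.064 and pairs among the others 0.019. Pairs of other genes were not set beside these values, and the part of array noise in them was not tested.

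Members differed in how far they followed the mean of the others, which moved with scan day. The highest r with that mean was 0.67 for Psma6, then 0.64 for Psma7, 0.62 for Psmb3 and 0.62 for Psmc3, and these became 0.54, 0.39, 0.50 and 0.45 with scan day removed. Psma3 had -0.17 and Psme1 -0.08. These genes were picked by their values, with no test. The genes outside the set most like the members' mean were Cox7c (r = 0.73), Txn1 (0.72), Atp5po (0.71), Atp5mg (0.71) and Pfdn4 (0.71) over 78 arrays, and 0.56, 0.63, 0.62, 0.55 and 0.55 with scan day removed. The mean standardized level of the 34 genes ran from -0.29 on scan day 5 to 0.31 on scan day 3. By chip lot it was 0.076, -0.24 and 0.13, lowest in lot 2, and each lot held arrays of every group.

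**Figure D5:**
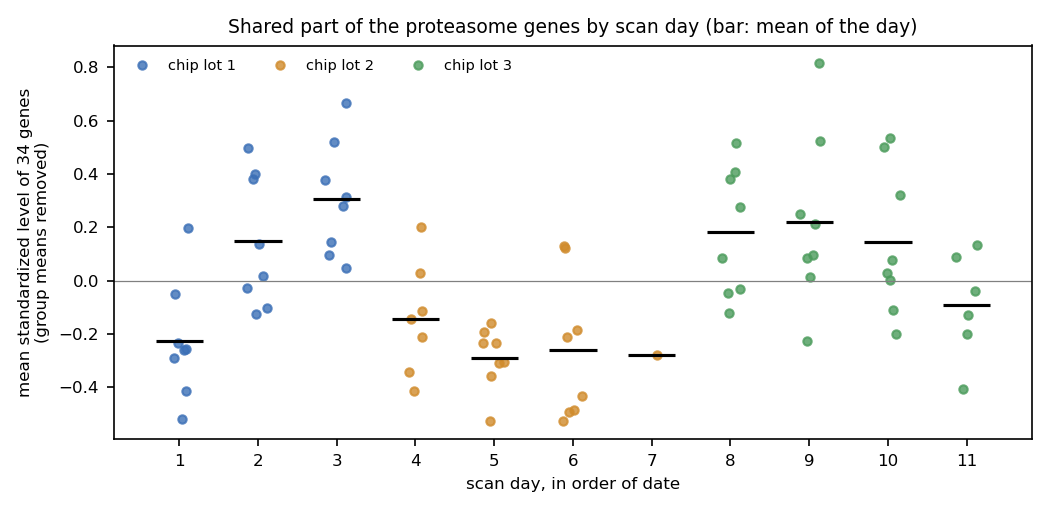
Mean standardized level of the 34 genes with group means removed (y axis) in each array, by scan day in order of date (x axis, 1 to 11), coloured by chip lot, with the mean of each day as a bar. The day means run from -0.29 to 0.31, and all 4 days of lot 2 lie below 0.

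For the ubiquitin and proteasome pathway 50 other gene symbols were listed, some of them older names of listed genes. Of these symbols, 38 were on the array and tested. In untrained rats 0 rose or fell with age, with 0.781% of all probe sets called. On days 5 and 21 1 of the 38 (2.63%) rose each time, against 2.5% and 2.84% of all: Nfe2l2, the antioxidant regulator. It rose by 0.30 ± 0.08 on day 5 (19 of 20 old arrays, adjusted p = 0.0155 by limma) and by 0.31 ± 0.08 on day 21 (18 of 19, adjusted p = 0.021). In the average added after the data were seen, Nfe2l2 (0.23 ± 0.05) and Nfe2l1, which drives proteasome genes when the proteasome is inhibited (0.12 ± 0.04, adjusted p = 0.0252), rose, and Ube2n, a ubiquitin-conjugating enzyme, fell by 0.11 ± 0.03 (adjusted p = 0.0262). These 3 are 7.89% of the 38, against 8.78% of all probe sets. The median of the 38 was -0.0022, -0.028 and -0.018 at the 3 times.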

How the data were processed

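RNA of 78 hippocampi was measured on RAE230A arrays, 1 per rat. Per the submitters' processing notes, the authors used MAS5 and GCOS 1.1; the deposited signal is a linear intensity. With the outer 2% of values at either end left out, each array averaged 500.08 to 500.1, so the arrays already shared a scale and were not normalized again. Array medians ran from 229.2 to 269.05. The number of arrays limits the precision.

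Of 15923 probe sets 57 controls were left out. Gene names came from the platform annotation. A probe set was tested when it exceeded the array's 40th percentile in 9 or more arrays, 9 being the smallest group size. Log2 of signal plus 1 was modelled as 8 group means (limma 3.58.1 under R 4.3.3, lmFit and trended eBayes), and p-values were adjusted by the Benjamini-Hochberg method over 10371 probe sets. The fit was tested on simulated data. Python 3.11.15 was used with matplotlib 3.10.9, pandas 2.3.3 and numpy 2.4.6. Permutation tests were two-sided, with 100000 permutations within groups.

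The members, the related genes and the marker lists were chosen with earlier results of these data known. Named genes were those past the threshold in a comparison, otherwise the 3 with the smallest p, and the smallest F-test p of each role. The array records deposited with the series gave the scan day, lot and module. Alternatives were quantile normalization, a pseudocount of 32, no filter, blocks for replicate number, scan day and lot, a module term, the 3′ over 5′ ratios of Gapdh and beta-actin as covariates, the removal of 5T-AI replicate 4, averaging the probe sets of each gene, and fitting only the arrays of a contrast. The deposited animal table of maze measures was not used here.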

Additional observations from a re-analysis of the deposited data

Results flagged for a closer look

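In 21 of 272 combinations of gene and group, the lowest or highest array stood off from the others by more than Dixon's 95% critical value for its group size, where chance gives about 1 in 20. Of these, 4 belonged to 5T-AI replicate 4: Psme1 at 1572.4 and Psme2 at 780.2 were high, and the ATPase genes Psmc1 at 1283.1 and Psmc5 at 1343.7 were low, against group medians of 765.2, 467.75, 1703.8 and 1840.7. In NT-A, replicate 10 was low for Psme1, at 573.5.

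In the alpha and beta rings, 21PT-AI replicate 8 was low for Psma1 (856.9) and replicate 5 of that group for Psmb5 (2328.3). 21PT-AU replicate 8 was low for Psmb2 (1429.6), and 5T-AU replicate 7 was high for Psmb3 (2518.2). Among the other ATPase values, Psmc2 was low in 5T-AI replicate 10 (2192.8) and 21PT-AU replicate 1 (2166.9). Psmc4 was low in 5T-AI replicate 5 (1147.7) and 21PT-Y replicate 8 (1129.9), and high in 21PT-AU replicate 2 (1833.2).

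Of the other regulatory particle genes, Psmd2 was high in 21PT-AI replicate 9 (1887.1) and Psmd3 in 5T-AU replicate 10 (741.3). Psmd7 was low in 21PT-AU replicate 10 (1312.4), Psmd8 in 5T-AU replicate 2 (836.4) and Psmd11 in 21PT-AI replicate 8 (1220.6). Of the chaperones, Psmd10 was low in 21PT-AU replicate 6 (490.9) and Psmd5 in 21PT-AI replicate 8 (509.7).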

How the results depend on the processing

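Of the counts of proteasome genes past the threshold, 174 stayed within 1.5 times the reported count under the alternatives and 4 did not. In most comparisons the reported count was 0, so most of the 174 were a 0 that stayed 0. With the module term the 1 gene called on day 5 in old against young rats became 0, as did the 1 gene of the F test. With only the arrays of the contrast the day 5 count also became 0. With scan day as a block 1 gene, Psma1, passed in unimpaired old rats on day 5 against untrained rats, where 0 had. The medians over the 34 genes were near 0 as reported; over 167 refits they shifted by -0.043 to 0.026, and 20 changed sign. The shift of -0.043 came in untrained rats with the module term. Within lots and under the refits they ranged from -0.070 to 0.053. Of the values of named genes, 463 kept their direction and side of the threshold, 2 lost their call (Psme1 on day 5, adjusted p = 0.445 and 0.0821) and 1 gained it (Psma1, adjusted p = 0.0499); 0 reversed. Over all probe sets the count moved from 81 to between 27 and 170 in untrained rats, from 259 to between 54 and 379 on day 5 and from 295 to between 116 and 512 on day 21, the lowest with the module term each time. For training it moved from 7 to between 0 and 10 in young, from 3 to between 0 and 15 in unimpaired and from 9 to between 2 and 24 in impaired rats. From day 5 to day 21 it moved from 10 to between 3 and 13 in young, from 0 to at most 1 in unimpaired and from 1 to between 0 and 2 in impaired rats. It moved from 0 to at most 1 on day 21 against untrained old rats, and for the F test from 426 to between 365 and 649. The cause of these shifts was not tested.

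The replicate numbers of the titles are not shown to pair the rats. The median correlation of same-numbered arrays was 0.06 to 0.18 in 7 pairs of groups. For different-numbered arrays it was -0.06 to -0.01, lower in each pair of groups. At most 8 of 10 same-numbered pairs exceeded 0.1, and at most 6 of 10 arrays correlated best with their own number. From 11.1% to 77.8% of same-numbered pairs shared a scan day, and pairing of the rats beyond that was not tested. With the replicate block the proteasome counts did not change, 1 gene being called on day 5 (Psme1, 0.36, adjusted p = 0.00188) and 0 in the other single comparisons, and over all probe sets the count went from 295 to 501 on day 21 and from 9 to 20 in trained impaired rats.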
